A study of Homo sapiens with 3 samples.

Results

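The replication-dependent histone genes encode the bulk histones H1, H2A, H2B, H3 and H4 that package newly copied DNA. They were chosen here by name alone, as rows whose symbol is H2A, H2B, H3 or H4 followed by C and a number, or H1-1 to H1-6, and 30 of the 14949 listed genes met this rule. There were 4 genes of class H1, 7 of H2A, 9 of H2B, 4 of H3 and 6 of H4. RNA was sequenced from MIAPaCa-2, a human pancreatic cancer cell line, in 3 groups of 1 library each. The groups were cells with a control short hairpin RNA (sh-CTL), cells with a short hairpin RNA against METTL3 (sh-METTL3), and sh-CTL cells exposed for 24 h to 80 nM NMS-P937, an inhibitor of PLK1 (sh-CTL + PLK1i). METTL3 is the catalytic subunit of the enzyme that methylates adenosines in messenger RNA, and PLK1 is a kinase needed for mitosis. The knockdown line was a gift, and whether it was a clone was not given in the sources used here. A vehicle group was not analysed here, and the control library is labelled untreated.

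As background, these genes lie in clusters, are transcribed mainly while DNA is being copied, and carry no introns in their short form. That short message is the only known animal messenger RNA class that usually ends without a poly(A) tail. It is cut just after a conserved stem-loop, a short hairpin of RNA that the stem-loop binding protein SLBP holds from processing to decay. Many of the genes can also be read past the stem-loop to an ordinary polyadenylation signal, which gives a longer message with a tail. The labels name a library kit whose standard protocol selects tailed RNA, and counts from such a protocol do not describe the whole histone message pool. The study's methods leave that selection out where they describe the kit for its methylated-RNA libraries, and whether it was left out for these libraries was not given in the sources used here. The 5 classes differ in role, since H2A, H2B, H3 and H4 form the nucleosome core and H1 binds the linker DNA between cores.

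The stem-loops of 10 members on which the results below turn are shown, so that the letters that separate near-identical genes can be seen. They were read from GRCh37 (hg19), on the strand of the gene and with T for U. Capitals mark the 16 bases of the stem-loop, and 5 flanking bases on each side are in lower case.
H1-2 (chr6:26055967-26055992, minus strand): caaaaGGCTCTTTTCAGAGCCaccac
H2AC6 (chr6:26124892-26124917, plus strand): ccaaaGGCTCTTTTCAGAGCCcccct
H2BC4 (chr6:26123695-26123720, minus strand): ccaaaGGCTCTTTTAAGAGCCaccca
H2BC12 (chr6:27114140-27114165, minus strand): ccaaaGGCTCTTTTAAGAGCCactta
H3C6 (chr6:26225819-26225844, plus strand): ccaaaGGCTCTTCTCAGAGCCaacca
H4C8 (chr6:26285354-26285379, minus strand): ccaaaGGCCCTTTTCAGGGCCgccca
H4C11 (chr6:27792232-27792257, plus strand): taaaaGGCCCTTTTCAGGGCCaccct
H4C12 (chr6:27798951-27798976, minus strand): caaaaGGCCCTTTTTAGGGCCcccac
H4C14 (chr1:149804591-149804616, plus strand): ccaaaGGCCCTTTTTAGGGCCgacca
H4C15 (chr1:149832330-149832355, minus strand): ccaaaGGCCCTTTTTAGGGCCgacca

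The pattern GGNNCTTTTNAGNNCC, where N is any base, was searched on the gene's strand in the 150 bases after the stop codon. It was found in 28 of the 29 members placed on the genome, against 33 of 12208 listed genes with an annotated stop codon (0.270%), and H3C6 was the member without it. The stem-loop of 16 members read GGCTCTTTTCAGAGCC, that of H2BC4, H2BC5, H2BC11 and H2BC12 read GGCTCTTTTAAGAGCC, and all 6 H4 members carried GGCC at both ends of theirs. Counted from 1 at the first capital base, H2AC6 and H2BC4 differed by C10A and H4C11 and H4C12 by C10T. The stem-loops of H4C14 and H4C15 did not differ.

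H2BC8 was not in the annotation used, GENCODE 44 lifted to GRCh37, so it has no position, length or message end here. Of the other members, 13 lay in a first stretch of chromosome 6, from H3C3 at 26045612 to H4C8 at 26285866. A second stretch held 11, from H2BC11 at 27093676 to H2AC17 at 27860963, and 5 lay on chromosome 1, from H2BC18 at 149754245 to H2AC20 at 149858961. The annotation names 64 genes of this family in all. Besides the 29 placed members, 3 were listed under other symbols that the rule does not match (H2AW, H2BU1 and H4-16), and 32 were not analysed here. At least 1 annotated transcript ended more than 50 bases past the stem-loop in 13 of the 29 placed members and in all 3 genes listed under other symbols. This held for 1 of the 32 not analysed here. The deposited table holds only genes that reached at least 0.503 CPM (reads scaled to a common library total) in some library. A member near that limit can be listed through a single library, and is then high in it by selection.

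Reads in listed genes came to 37449337 in the control, 46944892 in sh-METTL3 and 47727490 with the inhibitor. METTL3 had 3378, 1781 and 4223 reads in the same order, a log2 change of -1.25 in sh-METTL3, so the low count lay in the library labelled as the knockdown. PLK1 differed by -0.62 in sh-METTL3 and by 0.08 with the inhibitor. The epithelial keratins KRT8, KRT18 and KRT19 and the junction protein CLDN4 were listed, and the other 3 epithelial markers examined were not analysed here. Of 8 markers of pancreatic acinar, islet or progenitor cells, CEL alone was listed, with 62 to 88 reads. Of 4 fibroblast markers, COL1A2 had 44101 to 44493 reads and COL1A1 had 6 to 36. Of 3 white blood cell markers, CD68 alone was listed, with 1505 control reads, 3499 in sh-METTL3 and 2875 with the inhibitor, and its part in the results was not tested. Each group had 1 library, so no difference had a replicate check and no test was run. Intervals are exact and cover counting error between 2 libraries only.

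The histone genes together took few reads in every library. The 30 members had 1534 reads in the control, 2473 in sh-METTL3 and 3369 with the inhibitor, and read counts below are given in this order. That was 41.0 CPM (95% Clopper-Pearson interval 38.9 to 43.1), 52.7 (50.6 to 54.8) and 70.6 (68.2 to 73.0). The summed level was thus lowest in the control and highest with the inhibitor, and the intervals did not overlap. After the deposited scaling the summed reads were higher by 0.36 on the log2 scale in sh-METTL3 (0.27 to 0.45) and by 0.79 with the inhibitor (0.71 to 0.88). In RNA from whole cultures, more cells copying DNA and more histone RNA per cell cannot be told apart. If tailed RNA was selected, a larger tailed share of the histone messages cannot be told apart from either. The mean normalized count of a member, meaning reads divided by the library's size factor, ran from 13.8 to 553 with a median of 35.4, against a median of 906 over all listed genes. The mean was under 50 for 19 of the 30 members.

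**Figure D1:**
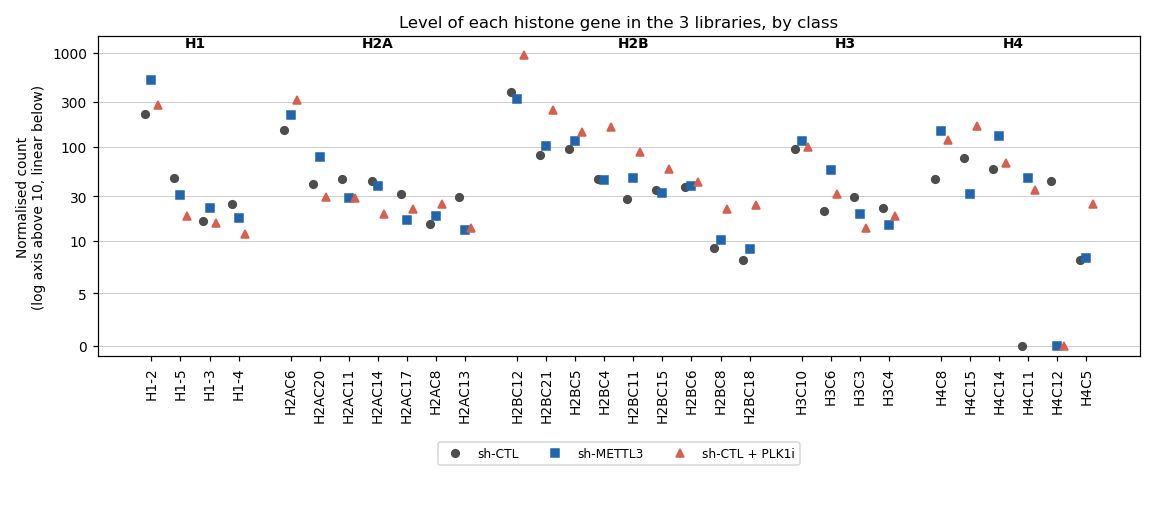
Normalized count of each of the 30 histone genes (vertical axis, logarithmic above 10 and linear below) in the 3 libraries, grouped by class and ordered by mean within it; each point is 1 library. H2BC12 has the highest mean over the 3 libraries, the red triangles of the inhibitor library lie above the control for all 9 H2B genes, and H4C11 and H4C12 are at 0 in opposite libraries.

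The sh-METTL3 library was set against the control to see which messages differed in the METTL3 knockdown. At least 2-fold higher were 5 members (16.7% of the 30), H1-2, H3C6, H4C8, H4C14 and H4C11, against 3.42% of all listed genes. At least 2-fold lower were 3 members (10%), H2AC13, H4C15 and H4C12, against 2.94% of all listed genes. H2AC13 and H4C12 were listed only through the control library, so they were selected as high in it. Among listed genes with a mean normalized count under 50, where most members lie, 13% were that much higher and 10.4% lower. Of the 19 members at that level, 2 were that much higher and 2 lower. Of the 11 members at 50 to 600, 3 were higher and 1 lower, and listed genes in that range were not compared in sh-METTL3. The median log2 change of the members was 0.07 (17 above 0 and 13 below), beside 0.00 for all genes. H4C11, H4C12, H4C14 and H4C15 are copies whose reads were divided differently in each library, as set out further down. The changes past 2-fold in members mostly of sequence found nowhere else were those of H1-2, H3C6 and H4C8.

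The inhibitor library was set against the same control to see which messages differ once PLK1 is blocked. At least 2-fold higher were 11 members, against 1.39% of all listed genes. They were H2AC6, the H2B genes H2BC4, H2BC8, H2BC11, H2BC12, H2BC18 and H2BC21, and the H4 genes H4C5, H4C8, H4C11 and H4C15. Of these, H2BC8, H2BC18 and H4C5 reached the 0.503 CPM limit for listing in the inhibitor library only. Their being higher there follows in part from that limit. At least 2-fold lower were 5 members, H1-5, H2AC13, H2AC14, H3C3 and H4C12, against 1.13% of all listed genes. Of these, H2AC13, H3C3 and H4C12 reached that limit in the control library only, so their being lower follows in part from it. Of the 11 members with a mean normalized count of 50 to 600, 7 were at least 2-fold higher and 0 were lower, where 1.23% and 0.719% of listed genes in that range were. Of the 19 members under 50, 4 were higher (21%) and 5 lower (26%), where 7.43% and 6.83% of listed genes at that level were. The median log2 change of the members was 0.44, with 19 above 0 and 11 below, beside 0.00 for all genes. The interval lay above 0 for 14 members and below 0 for 5, where it did so for 23.1% and 22.8% of all listed genes. In sh-METTL3 these were 7 and 5 members, beside 27.1% and 28.2% of all listed genes. Intervals narrow with read count, so these shares are not matched for level. The median of the mean normalized count was 35.4 for members and 906 for all genes. Both comparisons use the same control library, so the values of a member in them are not independent.

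**Figure D2:**
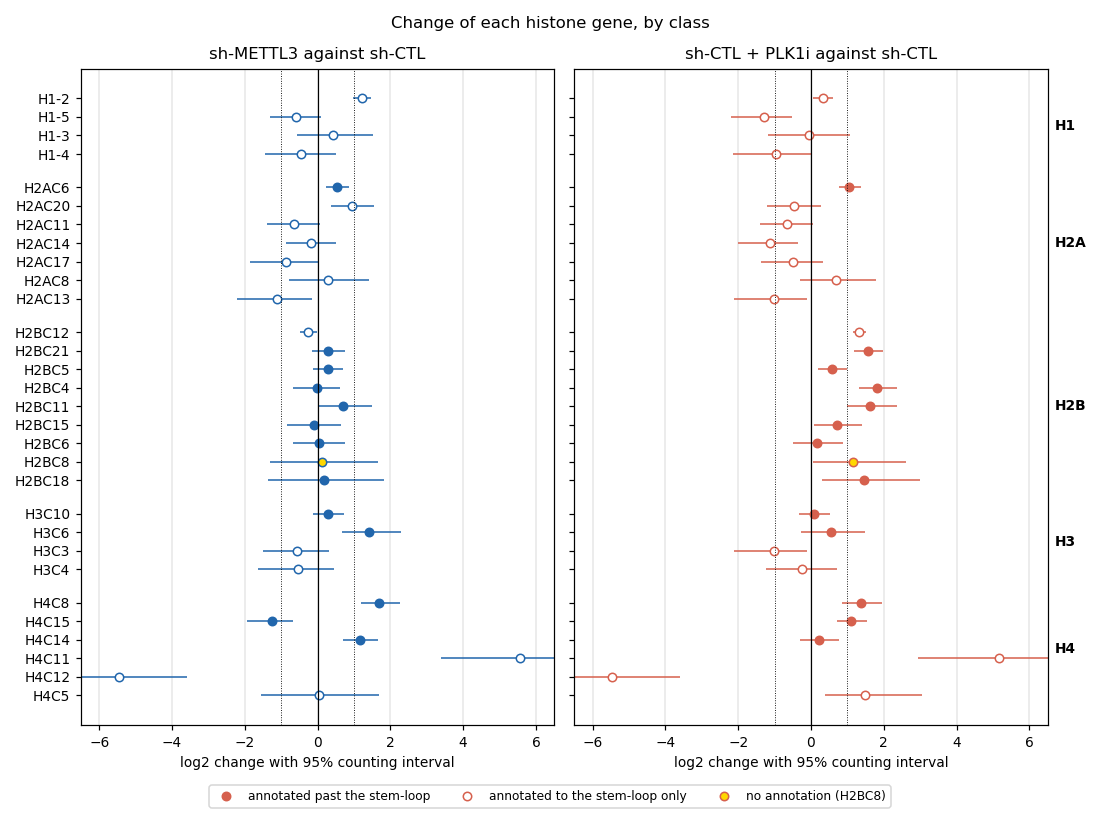
Change of each member on the scale of log2(normalized count + 1) with its 95% counting interval, in sh-METTL3 (left) and with the inhibitor (right) against sh-CTL; filled points are genes annotated past the stem-loop, open points those annotated to it only, and dotted lines mark 2-fold. In the inhibitor panel the filled points all lie above 0, and the points of H4C11 and H4C12 have a library at 0, so that their place depends on the added 1.

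H2B, which pairs with H2A in the nucleosome core, was the class whose summed reads differed most with the inhibitor. Over members mostly of sequence found nowhere else this order turned, since H4, then H4C5 and H4C8 alone, was 1.40 higher and H2B 1.27. Its 9 members summed to 620, 775 and 1893 reads. The normalized sums were 723, 718 and 1743, so the class was level with the control in sh-METTL3 (log2 change -0.01, -0.16 to 0.15) and 2.41-fold higher with the inhibitor (log2 change 1.27, 1.14 to 1.40). Of all reads of the members, H2B took 40.4% in the control, 31.3% in sh-METTL3 and 56.2% with the inhibitor. All 9 members were above the control with the inhibitor, by a median of 1.32 (range 0.18 to 1.80), while in sh-METTL3 6 were above and 3 below, by -0.25 to 0.71. Among the 9, H2BC8 and H2BC18 were listed only through the inhibitor library. H2BC19P and H2BC20P, listed genes with H2B names that the rule does not match, lay below the control with the inhibitor. H2BC19P had 267, 368 and 266 reads and differed by -0.35 (-0.60 to -0.10). H2BC20P had 454, 648 and 493 reads and differed by -0.22 (-0.41 to -0.03). In sh-METTL3 they differed by 0.13 and 0.18.

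H2BC12 had the highest mean level of all members over the libraries, at 770, 646 and 1932 normalized counts per kilobase of exon, though in sh-METTL3 H1-2 stood above it at 705. Its reads were 327, 345 and 1039, which made a log2 change of -0.25 (-0.48 to -0.03) in sh-METTL3 and of 1.32 (1.15 to 1.51) with the inhibitor. The inhibitor library thus held 2.51 times the control level of this gene. Of its 75-base windows, 39.0% also occur in other annotated genes, mainly in H2BC12L, not analysed here. Without H2BC12 the class was still 1.20 higher (1.01 to 1.40).

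H2BC21, on chromosome 1, had 71, 109 and 268 reads, and was 1.56 higher with the inhibitor (1.19 to 1.97). H2BC4 had 39, 48 and 175 reads, the largest log2 change of an H2B gene at 1.80 (1.32 to 2.36), with -0.03 in sh-METTL3. A stretch of 430 bases of the H2BC4 exons (14.9%) lies opposite HFE, an iron-regulating gene with 1796, 1697 and 1599 reads, and whether the counting used strand was not given in the sources used here. H2BC11 had 24, 50 and 96 reads and was 1.62 higher, or 3.16-fold. In each of these genes the inhibitor library stood apart and the other libraries lay closer to each other.

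H2BC5 had 82, 126 and 156 reads, 0.58 higher with the inhibitor (0.19 to 0.99), and H2BC15 had 30, 35 and 63, 0.71 higher (0.08 to 1.41). H2BC18 had 7, 10 and 26 reads and H2BC8 had 8, 11 and 24, with changes of 1.44 and 1.16 and lower bounds of 0.31 and 0.04. These counts are small and their intervals wide. H2BC6, which encodes the protein of H2BC4, had 32, 41 and 46 reads and was the H2B gene nearest the control, at 0.18 (-0.50 to 0.88). These genes for 1 protein thus lay at 1.80 and 0.18, and the protein of H2BC8 was not compared.

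H2A, the partner of H2B, was not alike among its members. The 7 genes summed to 306, 447 and 494 reads, 0.21 higher in sh-METTL3 (0.00 to 0.43) and 0.35 higher with the inhibitor (0.14 to 0.56). The class sum rested on H2AC6, whose reads were 130, 238 and 344. It was 0.54 higher in sh-METTL3 (0.23 to 0.86) and 1.06 higher with the inhibitor (0.77 to 1.37). Without H2AC6 the other 6 summed to 176, 209 and 150 reads and were 0.57 lower with the inhibitor (-0.90 to -0.25). With the inhibitor 5 of the 7 lay below the control.

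H2AC13 had 25, 14 and 15 reads, changes of -1.11 and -1.03, and H2AC14 had 37, 41 and 21, changes of -0.18 and -1.12. H2AC11 had 39, 31 and 31 reads and H2AC17 had 27, 18 and 24. H2AC11, H2AC13 and H2AC17 encode 1 identical protein of 130 residues, and none of the 3 stood above the control in either comparison. H2AC20 had 35, 85 and 32 reads, with a change of 0.93 in sh-METTL3 (0.37 to 1.56) and -0.46 with the inhibitor (-1.21 to 0.26). H2AC8 had 13, 20 and 27 reads, and both intervals held 0.

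Some H2A and H2B genes face away from each other with their starts close together, and 3 such pairs were both members. H2BC4 and H2AC6, with 245 bases between their starts, were higher by 1.80 and 1.06 with the inhibitor. H2BC11 and H2AC11, with 247 bases, differed by 1.62 and -0.65, and H2BC21 and H2AC20, with 235 bases, by 1.56 and -0.46. In the first pair both genes were higher, and in the other pairs the H2B gene was higher while the H2A interval held 0 (-1.40 to 0.05 for H2AC11). In the first pair both are annotated past the stem-loop, while H2AC11 and H2AC20 are annotated to it only. H2AC20 was taken up here for its place beside H2BC21, after its values were seen.

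H4, which forms the core with H3, is encoded by 6 members that all give the same protein of 103 residues. They summed to 199, 395 and 450 reads, 0.66 higher in sh-METTL3 (0.41 to 0.91) and 0.83 higher with the inhibitor (0.59 to 1.08). H4C8 had 39, 160 and 129 reads, 1.68 higher in sh-METTL3 (1.19 to 2.25) and 1.37 higher with the inhibitor (0.86 to 1.94). Both libraries lay far above the control for this gene, and none of its 75-base windows occurs in another annotated gene. H4C5 had 7, 9 and 27 reads, a log2 change of 0.03 in sh-METTL3 and a ratio of 3.05 with the inhibitor (log2 interval 0.37 to 3.05). This gene was listed only through the inhibitor library. Without H4C8 the class was 0.22 higher in sh-METTL3 (-0.07 to 0.52) and 0.66 higher with the inhibitor (0.38 to 0.95).

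The other 4 H4 genes form 2 pairs whose coding sequences of 309 bases are identical, so that reads from within them cannot be told apart. H4C11 had 0, 50 and 38 reads, and H4C12 had 37, 0 and 0. Taken singly, H4C11 was at least 13.2-fold and 10.0-fold higher than the control, and H4C12 at least 15.5-fold and 15.6-fold lower, against a floor of 3 reads. Summed, the pair had 37, 50 and 38 reads and differed by 0.10 (-0.54 to 0.76) and -0.29 (-0.99 to 0.39). In H4C11, 91.4% of the exonic 75-base windows also occur in H4C12, and in each library all reads of the pair stood under 1 of the 2 names.

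H4C14 and H4C15 also divided their reads unevenly between libraries. H4C14 had 50, 142 and 74 reads and H4C15 had 66, 34 and 182, so that H4C14 held 43.1% of the pair in sh-CTL (33.9 to 52.6), 80.7% in sh-METTL3 (74.1 to 86.2) and 28.9% with the inhibitor (23.4 to 34.9). Singly, H4C14 differed by 1.16 and 0.22 and H4C15 by -1.26 and 1.11, with opposite signs in sh-METTL3. Their sum of 116, 176 and 256 reads was 0.27 higher in sh-METTL3 (-0.08 to 0.62) and 0.80 higher with the inhibitor (0.48 to 1.13). Of their windows, 96.2% of those of H4C14 and 100% of those of H4C15 occur in another gene, each mainly in the other. The intervals of the shares treat each read as assigned with certainty, so they do not cover the error of dividing reads between the copies.

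**Figure D3:**
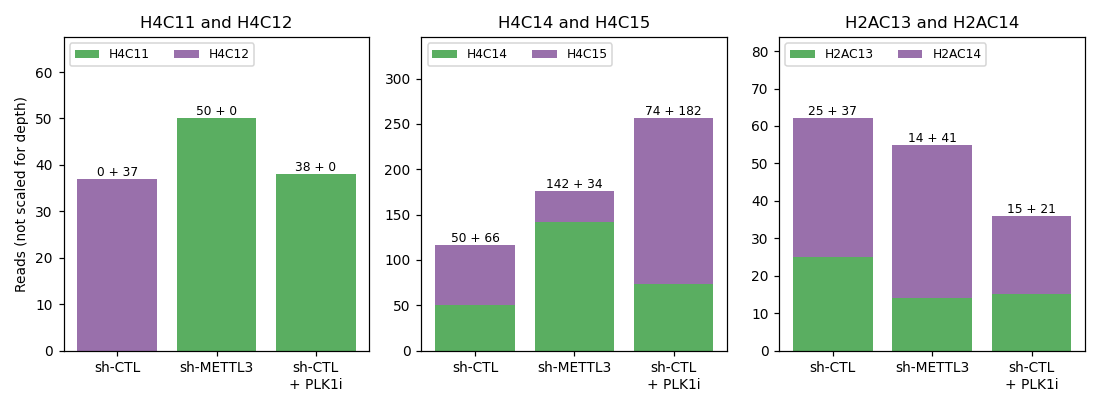
Reads, not scaled for depth, that each of 3 near-identical pairs of genes held in each library, with the reads of each gene written above its bar. For H4C11 with H4C12 and for H4C14 with H4C15 the division between the genes differs between libraries more than the height of the bar.

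H2AC13 and H2AC14, with 61.3% and 64.2% of their windows in each other, made another pair of this kind. H2AC13 held 40.3%, 25.5% and 41.7% of the pair's reads, shares whose intervals overlapped. Summed to 62, 55 and 36 reads, the pair was 0.50 lower in sh-METTL3 (-1.05 to 0.04) and 1.10 lower with the inhibitor (-1.76 to -0.51), the direction of each gene taken singly. H2AC17 shares 65.9% of its windows with H3C12, not analysed here.

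H3 encodes the core histone that carries many of the regulated chemical marks of chromatin, and its 4 members give 1 identical protein of 136 residues. They summed to 143, 224 and 178 reads, 0.31 higher in sh-METTL3 (0.01 to 0.63) and within counting error of the control with the inhibitor (-0.02, -0.35 to 0.30). H3C6 had 18, 62 and 34 reads, 1.41 higher in sh-METTL3 (0.68 to 2.30) and 0.55 higher with the inhibitor (-0.29 to 1.49). H3C10, the most abundant, had 81, 125 and 109 reads, changes of 0.29 and 0.09, and both intervals held 0. H3C3 had 25, 21 and 15 reads, 1.03 lower with the inhibitor (-2.11 to -0.10). H3C4 had 19, 16 and 20 reads, but 96.6% of its exon lies within a longer listed gene without a symbol on the same strand, ENSG00000282988, with 22, 17 and 75 reads. Summed with that gene, H3C4 was 0.63 lower in sh-METTL3 (-1.35 to 0.05) and 0.86 higher with the inhibitor (0.33 to 1.44), where H3C4 alone was at -0.25.

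H1, the linker histone, was the class whose summed reads differed most in sh-METTL3, except over members mostly of sequence found nowhere else, where H4 (H4C5 and H4C8) was 1.53 higher and H1 0.92. Its 4 members summed to 266, 632 and 354 reads, 0.92 higher in sh-METTL3 (0.71 to 1.13) and 0.07 higher with the inhibitor (-0.16 to 0.31). H1-2 made up most of this, with 191, 556 and 304 reads, 1.21 higher in sh-METTL3 (0.97 to 1.46) and 0.33 higher with the inhibitor (0.06 to 0.60). Without it the class had 75, 76 and 50 reads, 0.31 lower in sh-METTL3 (-0.79 to 0.17) and 0.91 lower with the inhibitor (-1.47 to -0.39). H1-5 had 40, 33 and 20 reads and stood at 0.395 of the control level with the inhibitor (log2 interval -2.19 to -0.53). H1-3 and H1-4 had 13 to 24 reads in every library, and all their intervals held 0. H1-3 was listed only through the sh-METTL3 library.

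**Figure D4:**
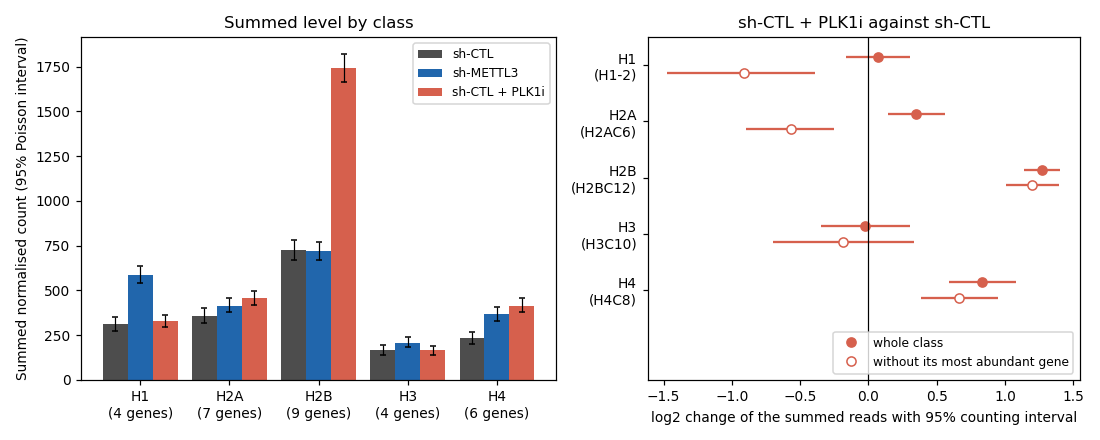
Left, summed normalized counts of each class in the 3 libraries, with 95% Poisson intervals; right, log2 change of the summed reads with the inhibitor, for the whole class and without the most abundant gene, named in brackets. The H2B sum is 1743 with the inhibitor against 723 in the control, and the open points of H1 and H2A lie below 0 where the filled ones do not.

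The members were also split by whether an annotated transcript runs past the stem-loop. With the inhibitor all 13 members annotated past it were above the control, by a median of 1.06 (range 0.09 to 1.80). The intervals of H2BC6, H3C6, H3C10 and H4C14 held 0, and H4C14 cannot be separated from H4C15. Of the 16 annotated to it only, 5 were above and 11 below, with a median of -0.47. The members above were H1-2, H2AC8, H2BC12, H4C5 and H4C11. H2AC8 and H4C5, like H2BC18 of the 13, were listed only through the inhibitor library. H1-4, H2AC13, H3C3, H3C4 and H4C12, all below, were listed only through the control library. The first set held 7 H2B genes, and its 6 other genes, H2AC6, H3C6, H3C10, H4C8, H4C14 and H4C15, summed to 384, 761 and 872 reads, 0.84 higher (0.67 to 1.02). The second set summed to 0.60 higher (0.48 to 0.72) with H2BC12 and to 0.15 lower (-0.32 to 0.02) without it. In sh-METTL3 10 of the 13 and 6 of the 16 were above the control. Among the 6 was H1-3, which was listed only through the sh-METTL3 library.

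The sets also differed in level, with a median of the mean normalized count of 86.0 for those annotated past the stem-loop and 22.1 for the others. At a mean of at least 30, all 12 of the first set and 2 of 6 of the second were above the control with the inhibitor, H1-2 and H2BC12 among the latter. Below 30, the counts were 1 of 1 and 3 of 10. The split by level was made after the values were seen, and both splits are descriptions. The 3 family genes listed under other symbols are also annotated past the stem-loop, and with the inhibitor H2AW differed by 0.18 (-0.14 to 0.51), H2BU1 by 0.16 (-0.53 to 0.88) and H4-16 by -0.15 (-1.04 to 0.74). In sh-METTL3 H2AW was 0.87 higher (0.58 to 1.18), with 134, 310 and 193 reads.

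**Figure D5:**
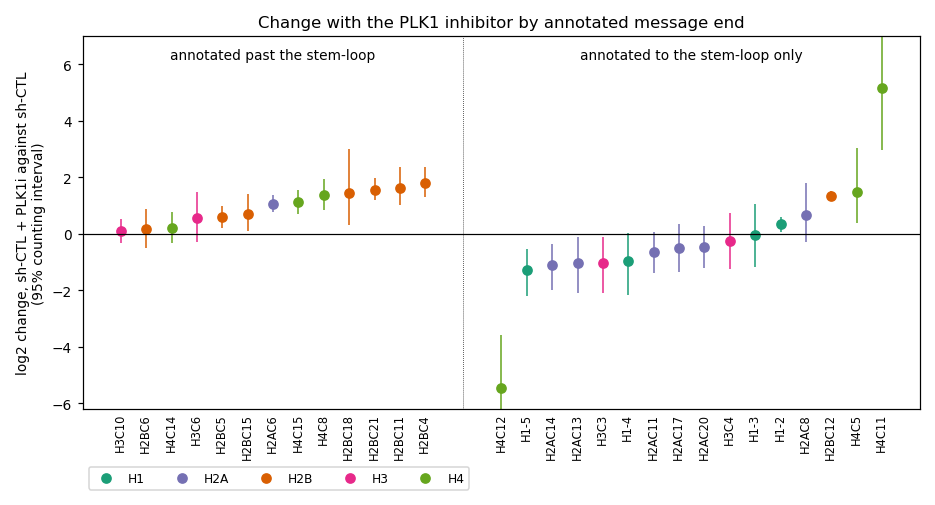
Change with the inhibitor against sh-CTL (vertical axis, log2 with 95% counting interval) for the 13 members annotated past the stem-loop and the 16 annotated to it only, each set ordered by its change and coloured by class. The points of the first set lie above 0 throughout, with intervals that hold 0 for H2BC6, H3C6, H3C10 and H4C14. In the second set 11 genes lie below 0 and H2BC12 stands at 1.32 with a narrow interval.

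By place, the first stretch of chromosome 6 summed to 630, 1340 and 1307 reads, 0.76 higher in sh-METTL3 (0.62 to 0.90) and 0.71 higher with the inhibitor (0.57 to 0.85). Without H1-2 and H4C8 its other 11 genes were 0.31 higher (0.13 to 0.50) and 0.79 higher (0.61 to 0.96). The second stretch summed to 667, 742 and 1456 reads, 0.18 lower in sh-METTL3 (-0.33 to -0.02) and 0.78 higher with the inhibitor (0.65 to 0.92). Without H2BC12 its other 10 genes were within counting error of the control in both comparisons, at -0.11 (-0.32 to 0.11) and -0.05 (-0.26 to 0.16). The 5 genes of chromosome 1 summed to 229, 380 and 582 reads, 0.40 higher in sh-METTL3 (0.16 to 0.64) and 2.01-fold higher with the inhibitor (log2 interval 0.78 to 1.23). The level of the second stretch with the inhibitor thus rested on H2BC12.

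A list of histone variants, many of which are made outside S phase as well, lay closer to the control. Of 12 listed, none was 2-fold higher or lower in either comparison, and the medians were 0.02 in sh-METTL3 and -0.13 with the inhibitor. The list held H4-16, counted above with the replication-dependent family, and the medians of the other 11 were 0.02 and -0.10. Those 11 had mean normalized counts of 723 to 18757, where the highest member had 553. Changes past 2-fold were rarer at higher level, since in sh-METTL3 13% of genes under 50 but 3.42% of all genes were that much higher. This list and those below were not matched to the members for level. H2AX, which is phosphorylated at DNA breaks, differed by 0.09 and by -0.46 (-0.52 to -0.41). H2AZ1, found around gene starts, differed by 0.02 and -0.01, and H3-3B, a source of the replacement form of H3, by -0.15 and 0.27.

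The 28 listed genes of histone message processing and transcription held no gene past 1.5-fold, with medians of -0.03 and 0.00. SLBP, which binds the stem-loop, had 3617, 4289 and 4834 reads, changes of -0.09 and 0.08. NPAT, the activator of histone gene transcription, differed by 0.05 and -0.13, and the U7 particle proteins LSM10 and LSM11, which take part in the cut after the stem-loop, by 0.01 and 0.06 and by -0.02 and -0.24. The 15 histone chaperones had medians of 0.10 and -0.08, and the 8 factors of general cleavage and polyadenylation 0.07 and 0.06. The 27 S phase genes had medians of -0.01 and -0.15, and with the inhibitor the interval lay below 0 for 18 of them and above 0 for 5. None of these 3 lists held a gene past 1.5-fold in either comparison. The H2B members were thus higher with the inhibitor in a library where most S phase genes were slightly lower. The part of S phase content in the histone values was not tested.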

How the data were processed

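Per the labels, MIAPaCa-2 RNA was isolated using ISOGEN and made into libraries by a TruSeq stranded kit for mRNA. The submitters' processing notes name FastQC 0.11.9, STAR 2.7.10, RSEM 1.3.3 and hg19, without roles. How reads in shared sequence were assigned was not given in the sources used here. The authors deposited 1 table of log2 values, equal to log2(normalized count + 4). The log2 and the 4 were undone, and division by each library's step gave whole reads, within 0.1 for 100% of values up to 2000 reads. Size factors were 0.858 (sh-CTL), 1.08 (sh-METTL3) and 1.09 (sh-CTL + PLK1i). With 1 library per group no count test was possible.

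Changes are differences of log2(normalized count + 1), which understates low genes. Intervals (95%) are exact Clopper-Pearson intervals of read ratios, Poisson intervals of sums, or binomial intervals of shares. They cover counting error only, because each group had 1 library. They treat each read as an independent count. Amplified reads are not independent molecules, and reads of shared sequence may have been divided by estimation, so the intervals may be too narrow. The floor of 3 reads equals 0.0801, 0.0639 and 0.0629 CPM. Positions, lengths, transcripts and windows came from GENCODE 44 on GRCh37, in which 14858 of 14949 identifiers were found. Windows were 75 transcript bases matched to transcripts of other annotated genes.

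The members and lists were chosen with earlier results of these data known. Reads in all 3 libraries were given for members with a mean of at least 100, those at least 2-fold higher or lower, and those with a shared protein or at least 50% shared windows, and for others where a pair or set needed them. Read recovery and intervals were tested on simulated data. Python 3.11.15, numpy 2.4.6, pandas 2.3.3, scipy 1.17.1 and pysam 0.24.0 were used. Alternatives were other scalings, pseudocounts, level filters, folds and ways of treating copies.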

Additional observations from a re-analysis of the deposited data

How the results depend on the processing

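In all, 570 values of 82 results were recomputed under other settings. Of these, 520 stayed within the counting interval or, for counts, within 1.5 times. Among them 2 sums near 0 turned sign, H2B in sh-METTL3 (-0.0093, or 0.010 with upper-quartile factors) and H3 with the inhibitor (-0.025, or 0.0085 over members mostly of unshared windows). Scaling by library totals, median-of-ratios or upper-quartile factors left every value within these limits, and median-of-ratios factors equalled the deposited ones. No paired analysis was possible because each group had 1 library and no test was run. Leaving out a library was not possible for the same reason.

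There were 6 sums that turned sign without their most abundant member. The interval with it had lain above 0 for 4 of them, H1 (-0.31) and H2A (-0.083) in sh-METTL3, H2A with the inhibitor (-0.57), and the members annotated to the stem-loop only with the inhibitor (-0.15, chosen after seeing the data). The interval had held 0 for the others, H2B in sh-METTL3 (0.22) and H1 with the inhibitor (-0.91). Without that member the other sums that moved in sh-METTL3 were 0.49 for all members, 0.22 for H4 and 0.49 for those annotated to the stem-loop only, and with the inhibitor 0.61 for all members. Without H2B, chosen after seeing the data, all members were at 0.56 and 0.35. Over members mostly of unshared windows the sums in sh-METTL3 were 0.45 for H2A and 1.53 for H4. With the inhibitor they were 0.89 for all members, 0.66 for H2A, 1.40 for H4 and 0.76 for those annotated to the stem-loop only. The median in sh-METTL3 was 0.54 at a mean of at least 200.

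Counts of members differed with level, fold and the treatment of copies. At a mean of at least 50, 3 were higher and 1 lower in sh-METTL3, and 7 higher and 0 lower with the inhibitor. At 200 these were 1 and 0, and 2 and 0. At 4-fold 1 member was left in each of the 4 counts, and at 1.5-fold 6 were lower in sh-METTL3. With members of the same protein summed, 1 and 0 were left in sh-METTL3 and 7 and 2 with the inhibitor. Over members mostly of unshared windows 3 and 0 were left in sh-METTL3, and 2 were lower with the inhibitor. With the near-identical pairs summed, chosen after seeing the data, 3 and 0 were left in sh-METTL3 and 3 were lower with the inhibitor. Pseudocounts of 4 and 10 left 3 and 1 lower with the inhibitor. The other 6 values that moved were those of H4C11 and H4C12 at pseudocounts of 4 or 10, of 360 values for single members.

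Depth limits single members, since 19 of 30 had a mean normalized count under 50, and variation between cultures was not measured.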
